A study of Saccharomyces cerevisiae with 4 samples.

Results

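The 5 reading frames on both sides of SUP61, a serine tRNA gene of budding yeast chromosome III, were followed in wild-type and deletion-strain cells. The deletion strain is labelled as lacking tRNA genes of chromosome III. The frames are TAH1 (YCR060W) and TVS1 (YCR061W) before the tRNA gene, and YCR064C, BUD31 (YCR063W) and HCM1 (YCR065W) after it. They are 5 of 6706 reading frames listed for each library, found by systematic name, and all 5 had enough counts to be among the 6205 tested. They were chosen by their place beside SUP61 with their log2 fold changes between the strains already known, so those differences are given as a description, and no test of them is used as support.

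Both strains are of the W-303 background and MATa, and both carry ade2-1, trp1-1 and ura3-1. The wild type, JRY2334, also carries his3-11,15, can1-100 and a mutant leu2 allele. The tDNA-less strain, JKY690, carries deletions on chromosome III named t0, t1 and t3 to t9, with LEU2 in place of t8 and t9. It also carries a further element given as T1+T7::HIS3. The numbering skips from t1 to t3, and the reference used below has 10 tRNA genes on chromosome III. The labels do not say which of these numbers is SUP61, what T1+T7 holds, or whether a copy of SUP61 was kept elsewhere. Cells were untreated and taken in early log phase in YPD, a rich medium, and there were 2 libraries of total RNA per strain, called biological replicates. Each strain is a single named strain. A deletion at the SUP61 site therefore cannot be told apart from the other deletions and markers that came with it.

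RNA polymerase III transcribes tRNA genes (tDNAs) from a promoter that lies inside the gene. The assembly factor TFIIIC binds the internal A and B boxes and places TFIIIB upstream of the start. In yeast such genes can dampen or insulate nearby transcription by RNA polymerase II, an effect known for neighbouring promoters and for the spread of silencing. SUP61 carries the anticodon CGA and is annotated as the tRNA that reads UCG codons, and some of its mutant alleles act as nonsense suppressors.

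The SUP61 gene is shown first, because it is the element whose surroundings are compared. In the R64 reference (sacCer3, the build named in the submitters' processing notes) it spans chrIII:227942-228042 on the plus strand, 101 bases with an intron of 19 bases between exons of 37 and 45. Capitals mark, from left to right, 7 letters of the A box, the anticodon and 7 letters of the B box.
SUP61: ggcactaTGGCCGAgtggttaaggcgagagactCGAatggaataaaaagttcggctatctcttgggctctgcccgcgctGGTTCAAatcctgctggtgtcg
The A box was searched as TGGCNNA and the B box as GGTTCNA, on both strands. The A-box letters were found in 147 of 275 nuclear tRNA genes of the reference (53.5%) and the B-box letters in 207 (75.3%). The reference is not W-303, so bases can differ from the strains used.

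Of the protein-coding neighbours, TAH1 (chrIII:224399-224734) ends 3207 bases before SUP61 and TVS1 (chrIII:225563-227458) ends 483 bases before it. BUD31 (chrIII:228318-228791) starts 275 bases after SUP61, and HCM1 (chrIII:229310-231004) starts 1267 bases after it. All 4 lie on the plus strand, as SUP61 does, and all 4 have the same coding length in the deposited tables as in the reference.

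**Figure D1:**
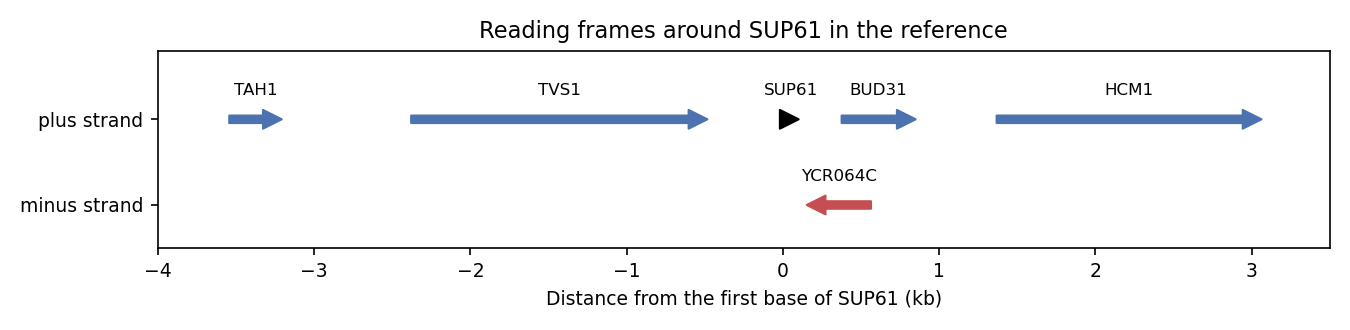
Map of the reading frames around SUP61 in the reference, drawn to scale as distance in kb from the first base of SUP61, with arrows pointing in the direction of transcription. TVS1, SUP61, BUD31 and HCM1 follow each other on the plus strand, and the frame matched to YCR064C lies on the minus strand across the start of BUD31.

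YCR064C is not in the reference annotation, so its place was found by its sequence properties. Between the end of TVS1 and the start of HCM1 there are 24 minus-strand frames that run from a start to a stop codon, and 1 of them has the 411 bases that the tables give YCR064C, while the next longest has 153. It spans chrIII:228095-228505, ends 52 bases after SUP61 and runs on the strand opposite to BUD31. Of its 411 bases, 188 overlap the start of BUD31 (45.7% of YCR064C and 39.7% of BUD31), and the other 223 lie in the gap between SUP61 and BUD31. This match rests on length, strand and order, as the deposited tables give no coordinates.

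The gap and the overlap are printed because the counts of BUD31 and YCR064C depend on them. The gap, chrIII:228043-228317 on the plus strand, begins with a stretch that holds a run of 8 T, the kind of sequence at which RNA polymerase III stops. Capitals mark the bases that also belong to YCR064C.
SUP61 to BUD31: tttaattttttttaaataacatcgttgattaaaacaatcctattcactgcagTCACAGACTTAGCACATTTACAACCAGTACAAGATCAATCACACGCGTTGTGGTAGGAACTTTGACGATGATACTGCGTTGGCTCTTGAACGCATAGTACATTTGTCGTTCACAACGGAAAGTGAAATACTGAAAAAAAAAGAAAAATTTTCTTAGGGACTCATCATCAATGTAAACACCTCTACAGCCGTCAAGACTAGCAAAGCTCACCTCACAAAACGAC
The overlap, chrIII:228318-228505, is also given on the plus strand. Capitals mark the start codon of BUD31 on the left and, on the right, the reverse complement of the start codon of YCR064C.
BUD31 start: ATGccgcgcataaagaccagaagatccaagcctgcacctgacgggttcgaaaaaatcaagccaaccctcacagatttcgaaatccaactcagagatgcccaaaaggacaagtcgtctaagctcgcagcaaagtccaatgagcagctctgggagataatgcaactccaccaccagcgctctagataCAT

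Each library had between 12.48 M and 19.76 M estimated counts. The frames YSH1, ATG7, LTO1 and MSK1 took 30.6% to 45.1% of them. Both strains are labelled MATa, and 6 of 6 MATa-specific genes were present in every library. They ran from 5.53 TPM for ASG7 in 1 library to 18853 TPM for MFA2. STE3, the a-factor receptor of alpha cells, lay between 0.57 and 0.83 TPM. Of the other alpha-specific genes, MF(ALPHA)1 lay at 1.23 TPM or below, and SAG1 and MF(ALPHA)2 lay between 7.13 and 13.84 TPM. MF(ALPHA)2 was above ASG7 in every library, so presence alone does not tell the mating types apart. HIS3 was at 17.6 and 12.8 TPM in wild type and at 522.9 and 648.4 TPM in the tDNA-less libraries. LEU2, the other marker of the tDNA-less genotype, was at 82.8 and 109.2 TPM in wild type, which carries a mutant allele, and at 40.1 and 40.6 TPM in the tDNA-less libraries, and these tables do not tell the alleles apart. SUP61 RNA itself is not analysed here, so whether the tDNA-less cells still make this tRNA was not checked.

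On the levels per length (TPM, estimated counts divided by effective length and scaled to a fixed total), TAH1 was the most abundant of the 5 in wild type, with 83.6 ± 6.03 TPM (SD, n = 2). HCM1 followed with 21.2 ± 1.63 TPM and BUD31 with 15.4 ± 2.19 TPM, and the libraries of neighbours in this order did not overlap. TVS1 with 8.79 ± 0.19 TPM and YCR064C with 8.36 ± 2.71 TPM came last, and those 2 overlapped. In the tDNA-less strain TAH1 was still highest, at 74.1 ± 13.2 TPM. YCR064C, last in wild type, stood at 28.1 ± 5.75 TPM and overlapped HCM1 at 26.8 ± 1.45 TPM. BUD31 at 19.99 ± 2.77 TPM and TVS1 at 15.5 ± 1.53 TPM were lower, with no overlap between them. Among all listed frames, YCR064C stood above 23.3% and 34.2% of the TPM values in the wild-type libraries and above 61.5% and 66.5% in the tDNA-less ones.

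The 4 frames nearest to SUP61 had larger fitted folds than TAH1, the farthest of the 5. TVS1 and YCR064C were higher in the tDNA-less strain by 1.94-fold and 3.52-fold, and BUD31 and HCM1 by smaller fitted folds of 1.38 and 1.40. TAH1 had a fitted fold of 0.934. In bulk RNA, a difference in some of the cells cannot be told apart from one in every cell. In counts scaled by library size (CPM), both tDNA-less libraries lay above both wild-type libraries in 4 of the 5. That arrangement was found in 22.0% of all frames tested. BUD31 and YCR064C share reads, as described below, so their values are not independent of each other. The median log2 fold change of the 5 was 0.48, beside 0.00 for all 6205 frames. It is a description only, as the members were chosen with these values known.

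**Figure D2:**
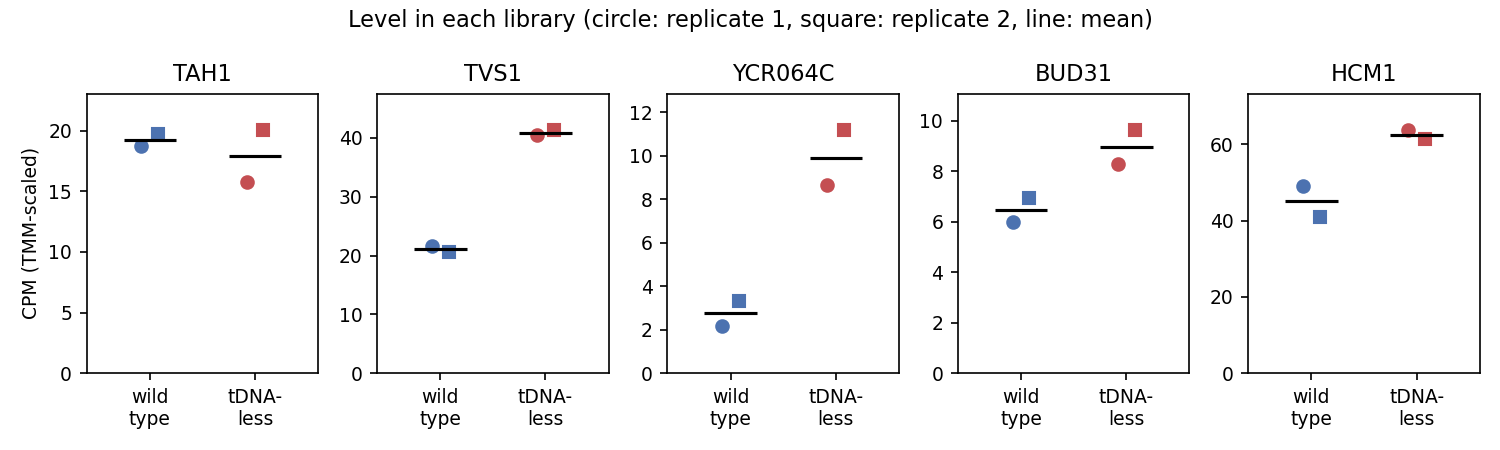
CPM of each of the 5 frames in each library, with circles for replicate 1, squares for replicate 2 and a line at the mean of each strain; every axis starts at 0. The tDNA-less libraries lie above the wild-type libraries in TVS1, YCR064C, BUD31 and HCM1, and the strains overlap in TAH1.

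Before the tRNA gene, TVS1 was measured at 21.57 and 20.68 CPM in the wild-type libraries and at 40.45 and 41.36 CPM in the tDNA-less libraries. The libraries of each strain were close together and the strains far apart. The fitted log2 fold change was 0.96 ± 0.10 (SE). This placed TVS1 at rank 37 from the top among all 6205 tested frames ordered by log2 fold change. None of its 1866 distinct words of 31 bases occurs in another annotated reading frame, and its counts are whole numbers, from 266 to 610.

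TAH1 encodes a cochaperone of Hsp90 that works with PIH1, RVB1 and RVB2 in the R2TP complex, an assembly factor of box C/D snoRNPs. It was measured at 18.73 and 19.74 CPM in wild type and at 15.78 and 20.07 CPM in the tDNA-less strain. The tDNA-less libraries lay on both sides of the wild-type ones. The fitted log2 fold change was -0.10 ± 0.15 (SE). Between TAH1 and TVS1 the annotation has a gap of 828 bases, which holds the replication origin ARS315.

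After the tRNA gene, YCR064C had the largest difference of the 5. It was measured at 2.19 and 3.31 CPM in the wild-type libraries and at 8.64 and 11.19 CPM in the tDNA-less libraries. The strains did not overlap, and the highest wild-type library was well below the lowest tDNA-less one. The fitted log2 fold change was 1.82 ± 0.29 (SE), rank 13 from the top among all 6205 tested frames. These levels are low: they rest on 27.2 and 74.5 estimated counts in wild type and 97.7 and 164.9 in the tDNA-less strain.

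BUD31 encodes a splicing factor, named for its effect on bud-site choice. It was measured at 6.0 and 6.94 CPM in wild type and at 8.28 and 9.63 CPM in the tDNA-less strain. The strains did not overlap. The fitted log2 fold change was 0.46 ± 0.23 (SE).

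The counts of BUD31 and YCR064C cannot be separated fully. The frames share 158 words of 31 bases when both strands are read, which are 35.6% of the words of BUD31 and 41.5% of those of YCR064C. In every library both estimated counts were fractions whose sum was whole, at 101 and 229 in wild type and 192 and 307 in the tDNA-less strain. In wild-type replicate 1, for example, 73.8 counts were given to BUD31 and 27.2 to YCR064C. Among 35 annotated pairs of frames that overlap on opposite strands by at least 31 bases, 11 to 18 pairs per library had fractions in both members, and in 9 to 16 of those the sum was whole within 0.01. Reads from the overlap were thus divided between the strands, although the library kit is described as directional. The fit took the divided counts as given. The SE of each frame, and the rank and call of YCR064C, therefore leave out the uncertainty of this division.

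The share of the pair's counts that was given to YCR064C was 26.9% and 32.5% in the wild-type libraries. It was 50.9% and 53.7% in the tDNA-less libraries. The share was therefore higher in both tDNA-less libraries than in both wild-type libraries. With the pair taken as a single feature, the level was 8.19 and 10.25 CPM in wild type and 16.92 and 20.81 CPM in the tDNA-less strain. The sum was 2.03-fold higher, with a log2 fold change of 1.02 ± 0.18 (SE), however the reads were divided between the frames. A sum does not show that every part of the pair was higher. The part of BUD31 outside the overlap was not counted separately. Whether the reads outside the overlap came from the plus or the minus strand cannot be told from these counts.

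**Figure D3:**
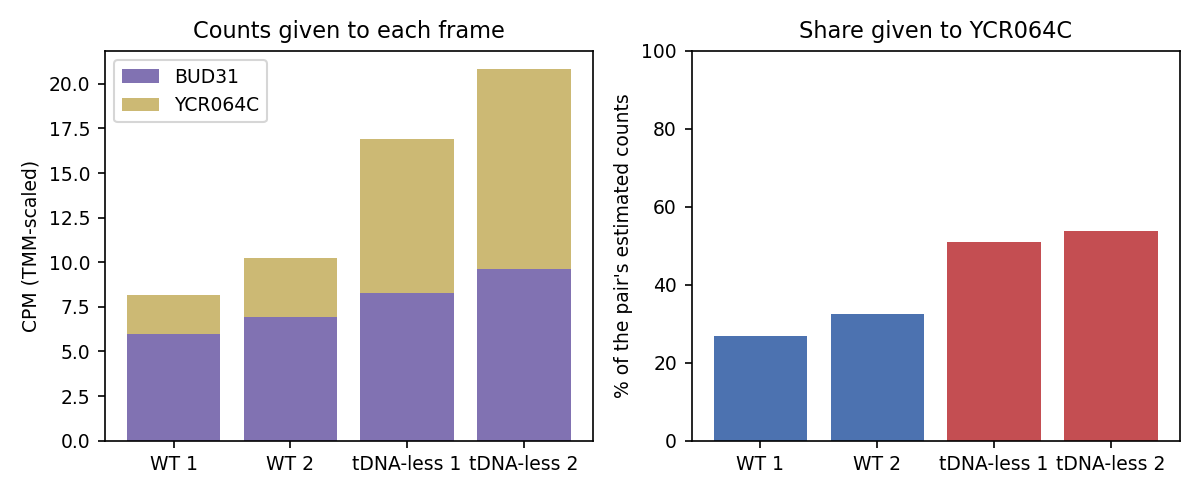
Left, CPM given to BUD31 and YCR064C in each library, stacked; right, the percent of the pair's estimated counts given to YCR064C. The stacked level runs from 8.19 and 10.25 CPM in wild type to 16.92 and 20.81 CPM in the tDNA-less strain, and the share of YCR064C from 26.9% and 32.5% to 50.9% and 53.7%.

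HCM1 encodes a forkhead transcription factor that drives genes of late S phase, among them FKH1, FKH2, NDD1 and WHI5. It was measured at 49.14 and 40.95 CPM in wild type and at 63.81 and 61.36 CPM in the tDNA-less strain. The strains did not overlap, and the wild-type libraries were farther from each other than the tDNA-less ones. The fitted log2 fold change was 0.48 ± 0.11 (SE). It shares none of its words of 31 bases with another annotated frame.

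In the fit over all frames (edgeR's quasi-likelihood test, adjusted p under 0.05), 93 of 6205 frames were called, or 1.5%, and 50 were called upward, or 0.806%. Of the 5 members 2 were called, TVS1 and YCR064C, both upward, and nothing is read from this count because the members were chosen with it known. YCR064C was no longer called without wild-type replicate 1 (edgeR, adjusted p = 0.0591), without tDNA-less replicate 1 (0.109) or without tDNA-less replicate 2 (0.231). TVS1 was no longer called without tDNA-less replicate 1 (0.0517), nor when limma was run on log2(TPM + 1) (adjusted p = 0.0792) or log2(TPM + 0.1) (0.0819). HCM1, not called by edgeR with all libraries (0.0704), was called by edgeR without wild-type replicate 1 (0.0303) and by DESeq2 with all libraries (adjusted p = 0.0495), and limma-voom did not call it (0.0625). Of the 455 tested frames that the reference does not annotate, 1.32% were called, YCR064C among them. Of 59 tested annotated frames that overlap another on the opposite strand by at least 31 bases, 0.0% were called by edgeR, with 6 at an unadjusted p under 0.05 and 0 called by DESeq2 or limma-voom. Of 153 tested annotated frames of chromosome III, 4.58% were called, TVS1 among them.

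Beyond the 5 members, the next frame before TAH1 is YIH1, an inhibitor of the activation of the kinase GCN2, whose near end lies 3.71 kb before SUP61. It had 53.19 and 59.16 CPM in wild type and 41.42 and 50.58 CPM in the tDNA-less strain, a log2 fold change of -0.29 ± 0.11 (SE). The next after HCM1 is RAD18, a ubiquitin ligase of post-replication repair that starts 3.46 kb after SUP61. Its log2 fold change was -0.18 ± 0.16, and its libraries overlapped between the strains. Neither was called. Both values were negative, as was that of the member TAH1 (-0.10), where those of TVS1, YCR064C, BUD31 and HCM1 were positive. The sign of RAD18 was not stable, with 0.020 when tDNA-less replicate 1 was left out.

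Over the 10 frames beyond TAH1 and the 10 beyond HCM1, 0 of 20 were called by edgeR's quasi-likelihood test, beside 1.5% of all frames, and 0 by DESeq2 or limma-voom. At an unadjusted p under 0.05 there were 7 of the 20, beside 11.8% of all frames tested. Of these, BUD23, YCR050C, PWP2, YIH1, RSA4 and SSK22 were lower in the tDNA-less strain, and SED4 was higher. Their log2 fold changes ran from -0.72 to 0.25 with a median of -0.08. The lowest was YCR050C at -0.72 ± 0.23, a frame that overlaps ARE1 on the opposite strand, followed by RSA4, a ribosome assembly factor, at -0.36 ± 0.08. The highest of the 20 was IMG2 at 0.25 ± 0.11 (SE). That was below the fitted values of BUD31 (0.46 ± 0.23) and HCM1 (0.48 ± 0.11), but within the SE of BUD31.

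**Figure D4:**
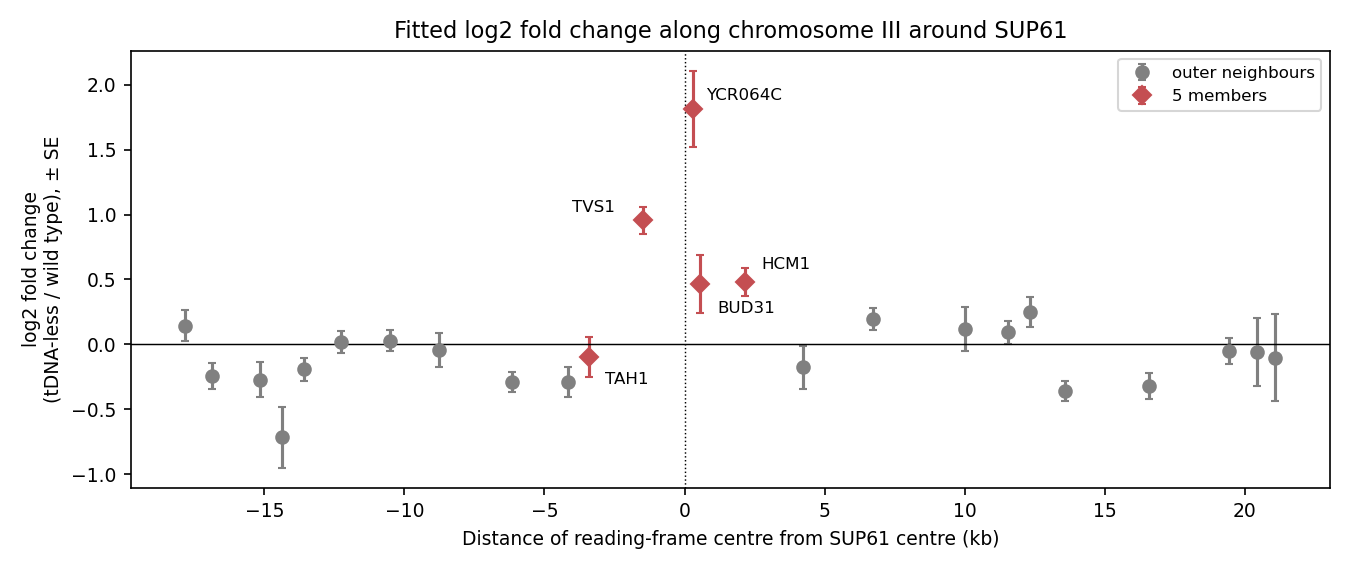
Fitted log2 fold change (tDNA-less against wild type, bars ± SE) of the 5 members and of 10 frames on each side, against the distance in kb of each frame's centre from that of SUP61. The fitted values of YCR064C (1.82), TVS1 (0.96), HCM1 (0.48) and BUD31 (0.46) are above those of the 20 outer frames, which lie between -0.72 and 0.25. The bar of BUD31 reaches below the highest outer value.

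Genes that act with HCM1, BUD31 and TAH1, and with serine tRNA, were set beside the same background. In it 1.5% of all frames were called by edgeR and 11.8% had an unadjusted p under 0.05. All of these lists were chosen with earlier results of these data known. Their counts and p-values are therefore a description, and no support is drawn from them. Of 17 cell cycle regulators listed with HCM1, edgeR called 0, as did DESeq2 and limma-voom, and 0 had an unadjusted p under 0.05 in edgeR, with a median log2 fold change of 0.11. The HCM1 targets FKH1, FKH2, NDD1 and WHI5 had log2 fold changes of -0.04 ± 0.10, 0.11 ± 0.09, 0.07 ± 0.11 and 0.16 ± 0.20 (SE), and the strains overlapped in each. The largest in the list were those of CIN8, a spindle motor, at 0.32 ± 0.21, and SWI4, the DNA-binding subunit of the G1 factor SBF, at 0.30 ± 0.15. With a library left out, CIN8 ran from 0.014 (without wild-type replicate 2) to 0.64 (without wild-type replicate 1) and SWI4 from 0.051 (without tDNA-less replicate 1) to 0.51 (without tDNA-less replicate 2).

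Of 21 splicing factors listed with BUD31, mostly of the Prp19 complex, edgeR, DESeq2 and limma-voom each called 0, beside 1.5% of all frames in edgeR, and 1 had an unadjusted p under 0.05 in edgeR, beside 11.8%. Their median log2 fold change was -0.07. The largest were those of CEF1, a core subunit of that complex, at -0.32 ± 0.12, and CWC21 at 0.28 ± 0.15.

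Of 22 Hsp90 cochaperones, R2TP subunits and snoRNP proteins listed with TAH1, 1 was called higher, HSP82, and 0 lower, beside 1.5% of all frames. At an unadjusted p under 0.05 in edgeR there were 4 of the 22, beside 11.8% of all frames tested. The median log2 fold change was 0.00. HSP82, an Hsp90 chaperone, stood at 72.5 ± 4.34 CPM in wild type and 122 ± 3.14 CPM in the tDNA-less strain (SD, n = 2). Its log2 fold change was 0.75 ± 0.08 (SE; edgeR, adjusted p = 0.00163), and it shares 15.5% of its words of 31 bases with other frames. The call was lost without tDNA-less replicate 1 (0.0575) or tDNA-less replicate 2 (0.0712), and also when limma was run on log2(TPM + 1) (adjusted p = 0.192). CPR6, a cyclophilin that binds Hsp90, had 0.35 ± 0.08 and was not called. The R2TP partners of TAH1 had log2 fold changes of -0.21 ± 0.17 for PIH1, -0.23 ± 0.08 for RVB1 and -0.16 ± 0.08 for RVB2, none of them called.

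Genes that charge, modify or splice serine tRNA were examined because SUP61 is a serine tRNA gene with an intron. Of 11 tested, edgeR, DESeq2 and limma-voom each called 0, beside 1.5% of all frames in edgeR, and 1 had an unadjusted p under 0.05 in edgeR, beside 11.8%. The median log2 fold change was -0.08. SES1, the cytosolic seryl-tRNA synthetase, was at 297 ± 7.98 CPM in wild type and 296.1 ± 9.07 CPM in the tDNA-less strain. SEN15, a subunit of the tRNA splicing endonuclease, was at 10.6 ± 0.55 and 7.14 ± 0.50 CPM, a log2 fold change of -0.58 ± 0.21. TRM44, a methyltransferase of serine tRNA, had -0.17 ± 0.09.

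The codon that SUP61 reads was also counted in the members themselves. TCG made up 9 of 55 serine codons in TVS1 (16.4%), 10 of 66 in HCM1 (15.2%), 3 of 19 in the frame matched to YCR064C (15.8%) and 1 of 9 in BUD31 (11.1%), and TAH1 had 0 among 7. Over all annotated frames it made up 9.7% of serine codons.

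The frames whose levels moved most like those of each member were sought by the Euclidean distance of centred log2 CPM over the 4 libraries, among frames whose mean log2 CPM reached 3. With 4 libraries many frames lie close to any pattern. ECM13 and MRM1 were nearest to TVS1, at distances of 0.15 and 0.17. CIT2, which also lies on chromosome III, and YMR051C were nearest to YCR064C, but at 0.42 and 0.57. RTN2 and MRX9 were nearest to HCM1 (0.060 and 0.078), PEX21 and PYC1 to BUD31 (0.030 and 0.032), and VPR1 and CKS1 to TAH1 (0.017 and 0.036).

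The fitted folds of the members were also set side by side over other scalings, filters, tests and subsets of the libraries. TVS1 stayed between 0.75 and 0.98 on the log2 scale, YCR064C between 1.58 and 2.18, HCM1 between 0.33 and 0.60, and BUD31, counted apart from YCR064C, between 0.35 and 0.58. TAH1 ran from -0.29 to 0.054.

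**Figure D5:**
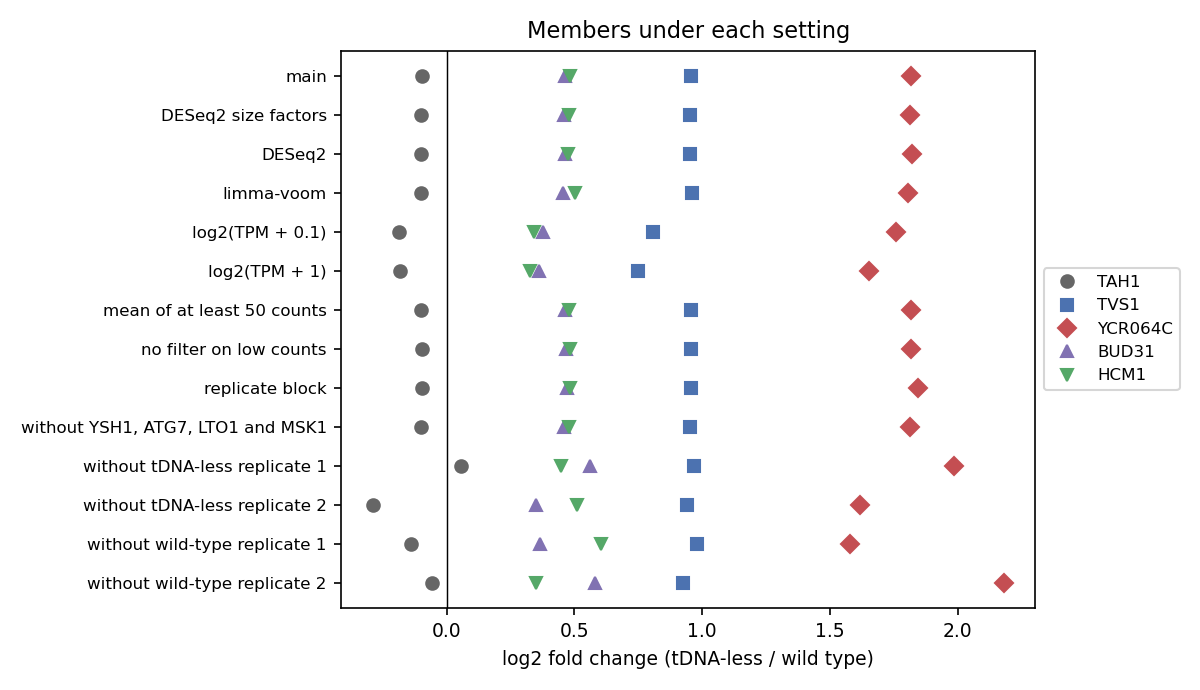
Log2 fold change of each member (tDNA-less against wild type) under the settings named on the vertical axis, where main is the fit reported. YCR064C lies at 1.58 or above and TVS1 between 0.75 and 0.98 in every setting plotted, and TAH1 is the only member that changes sign.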

How the data were processed

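Total RNA was sequenced in 4 libraries. Per the submitters' processing notes, kallisto, sleuth and the build sacCer3 were used; versions, the index and the strand setting were not given in the sources used here. Deposited tables hold an estimated count per reading frame, with shared reads divided, and TPM values, which the authors' tool derives from those counts and effective lengths; the files give both lengths in bases. Coding lengths hold no UTRs.

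Estimated counts were rounded, filtered with filterByExpr (minimum 10), scaled by TMM and compared with edgeR 4.0.16 (R 4.3.3), with Benjamini-Hochberg adjustment over 6205 frames and calls at 0.05. The SE is the absolute log2 fold change over the square root of F. The biological coefficient of variation was 9.8%. P-values come from the fitted model: with 2 libraries a strain, a permutation could not reach the threshold. Alternatives used DESeq2 1.42.0 and limma 3.58.1. The fit was also run on simulated counts, with a common dispersion for all frames and no divided reads. Nothing is drawn from that run here.

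Members and gene lists were chosen with earlier results of these data known. Named are the members, called genes of each list (up to 4; otherwise the 2 largest changes), genes tied to a member by known role, and the 2 nearest patterns. Of the listed tRNA genes' partners, TRM141 was not matched. Names and positions are from R64, in which 6022 of 6706 frames were found.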

Additional observations from a re-analysis of the deposited data

How the results depend on the processing

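Of 93 frames called, 50 were higher and 43 lower; on the log2(TPM + 1) scale 52 were called, 17 higher and 35 lower, and on log2(TPM + 0.1) 39, 11 higher and 28 lower, where the median of all frames was -0.114 and -0.122. Leaving out 1 library gave 21 to 91 calls. Of the 5 members, 1 was called on either TPM scale and 0 to 2 with a library left out. On log2(TPM + 1) and log2(TPM + 0.1) TVS1 had 0.75 and 0.81, and HCM1 0.33 and 0.34; part of this is the shift of the median, as TPM was not scaled further. Leaving out a library moved TAH1 between -0.29 and 0.054 and YCR064C between 1.58 and 2.18. Summing BUD31 and YCR064C gave 1.02 for the pair. Of the TAH1 list, 0 were called on either TPM scale and 0 or 1 with a library left out. With a library left out RAD18 ran from -0.43 to 0.020 (without tDNA-less replicate 1) and SES1 from -0.038 to 0.023 (without wild-type replicate 2); neither was called. Causes were not tested, except where the construction shows them.

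The replicate number as a block gave 282 calls, 2 of the 20 outer frames and 2 of the TAH1 list among them. The labels do not say that a number marks a shared batch, and same-numbered libraries correlated at 0.241 in their deviations from the strain means, over only 2 pairs, so the pairing was not taken as given. HCM1 was called under the block (edgeR, adjusted p = 0.00384). No support is drawn from this call, because the members were chosen with their differences known. Low counts limit YCR064C and BUD31.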
